A study of Macaca mulatta with 24 samples.

Results

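The BCL2 family of apoptosis regulators was followed in the ileum of rhesus macaques after total-body irradiation (TBI). Members were all probes whose gene symbol in the authors' normalized table was BAX, BAK1, BCL2, BCL2A1, BCL2L1, MCL1, BID, BBC3, PMAIP1 or BCL2L11. Of these 10 symbols, 7 were carried by a probe, with 16 probes among the 43603 on the array; no probe carried the symbol BCL2, BID or BBC3, and these genes were not analysed here. All 16 probes were among the 36108 tested, for which at least 1 group had a signal well above background in every animal. For 7 of the 16 probes, the accession on the array also led to the same symbol in the RefSeq gene table of a newer assembly, and the symbols of the other 9 rest on the authors' table.

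The animals were 24 young-adult males, each contributing 1 array of RNA from whole gut tissue without pooling. Of these, 4 were unirradiated (sham-exposed) and 20 were exposed to cobalt-60 gamma rays at a uniform dose of 6.7 or 7.4 Gy. At each dose, 4 animals were studied on day 4, 4 on day 7 and 2 on day 12. The same 4 unirradiated animals, labelled day 4, were the baseline at every dose and day, so the 6 comparisons with them share their controls. Levels are log2 intensities relative to the 75th percentile of each array, so that 0 marks a probe as bright as that percentile and 1 unit is a 2-fold difference. Changes are differences of group mean levels, given with their standard error (SE) and with limma's p-value adjusted by the method of Benjamini and Hochberg across the tested probes (adjusted p). Called probes are those with an adjusted p under 0.05 and a change of 2-fold or more.

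BCL2 family proteins decide whether the outer mitochondrial membrane is permeabilized, the step that releases cytochrome c and starts the caspase cascade. BAX and BAK1 form the pores; BCL2A1, BCL2L1 (BCL-XL) and MCL1 hold them in check; and the BH3-only proteins BCL2L11 (BIM) and PMAIP1 (NOXA) antagonize the protective members. The crypt epithelium and the lymphocytes of the gut are among the cells in which irradiation is known to induce apoptosis.

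Signals well above background were obtained for 72.7 to 88.1% of the probes of an array. In 4 arrays this share was below 78%, namely replicates 1 and 4 on day 4 after 6.7 Gy, replicate 3 on day 4 after 7.4 Gy and replicate 1 on day 7 after 7.4 Gy. The 5 tested of 8 enterocyte markers of the ileum had summed linear levels from 152 to 758 (the 75th percentile of an array being 1), with at most 1 of the 5 not well above background on an array. Replicate 1 of the unirradiated animals stood apart: its smooth muscle markers summed to 88.7, against 266 to 533 on the other 23 arrays. That animal was also the highest control on the brightest probes of BAX, BCL2L1, BCL2L11, MCL1 and PMAIP1. Several changes of BCL2L1, BCL2L11, MCL1 and PMAIP1 are also given without it. The arrays lay on 6 slides of 4 positions, and the controls all lay in position 1 while the arrays of days 7 and 12 lay in positions 3 and 4. The day-4 arrays lay in positions 1 and 2 after 6.7 Gy and all in position 2 after 7.4 Gy. For days 7 and 12 array position and group cannot be told apart.

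BAX and BCL2A1 were the family members with the clearest changes, in opposite directions and on different days. BAX, the pore-forming effector, rose about 2-fold on day 4 after both doses and was closer to the unirradiated level on days 7 and 12. BCL2A1, a protective member best known from blood cells, was 4.48-fold lower on day 7 after 7.4 Gy (a log2 change of -2.16, or -1.18 with the normexp background correction). A BCL2L11 probe was called lower in the same group. Its p stayed below 0.05 in 20 of 35 alternatives, and in 19 the 2-fold limit was met as well. This BCL2L11 call was lost without the first control. No probe of BAK1, BCL2L1, MCL1 or PMAIP1 passed limma's test against unirradiated ileum with all 4 controls. The unadjusted limma p was below 0.05 in 1 of 18, 4 of 12, 1 of 12 and 0 of 6 tests. The share of all tested probes at that threshold is given only for day 12 after 7.4 Gy (8.13%), so these counts have no full background. Without the first control BCL2L1 passed on day 4 at both doses. Without control replicate 2 the brightest BAK1 probe passed, on the lower side, on day 4 after 7.4 Gy. In whole tissue, fewer cells of a type and less RNA per cell cannot be told apart.

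In counts, 1 of the 16 probes was called higher on day 4 at each dose, against a background of 0.978% of all tested probes called at 6.7 Gy (0.595% higher) and 2.33% at 7.4 Gy (1.6% higher). On day 7, 1 probe was called lower after 6.7 Gy (background 0.235%, 0.183% lower) and 3 after 7.4 Gy (background 0.568%, 0.454% lower). On day 12, 1 probe was called lower after 6.7 Gy (background 0.108%, 0.0748% lower) and 0 after 7.4 Gy (background 0.0443%), where 3 probes had an unadjusted limma p below 0.05 (background 8.13%) and the methods' t-test without adjustment called 1. With probes of the same gene counted separately, these calls came from only 3 genes. The median change of the 16 probes was -0.20 on day 4 and -0.27 on day 7 after 7.4 Gy, beside -0.07 and -0.03 over all tested probes. At 6.7 Gy the medians were -0.16 and -0.11, beside -0.10 and -0.00.

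**Figure D1:**
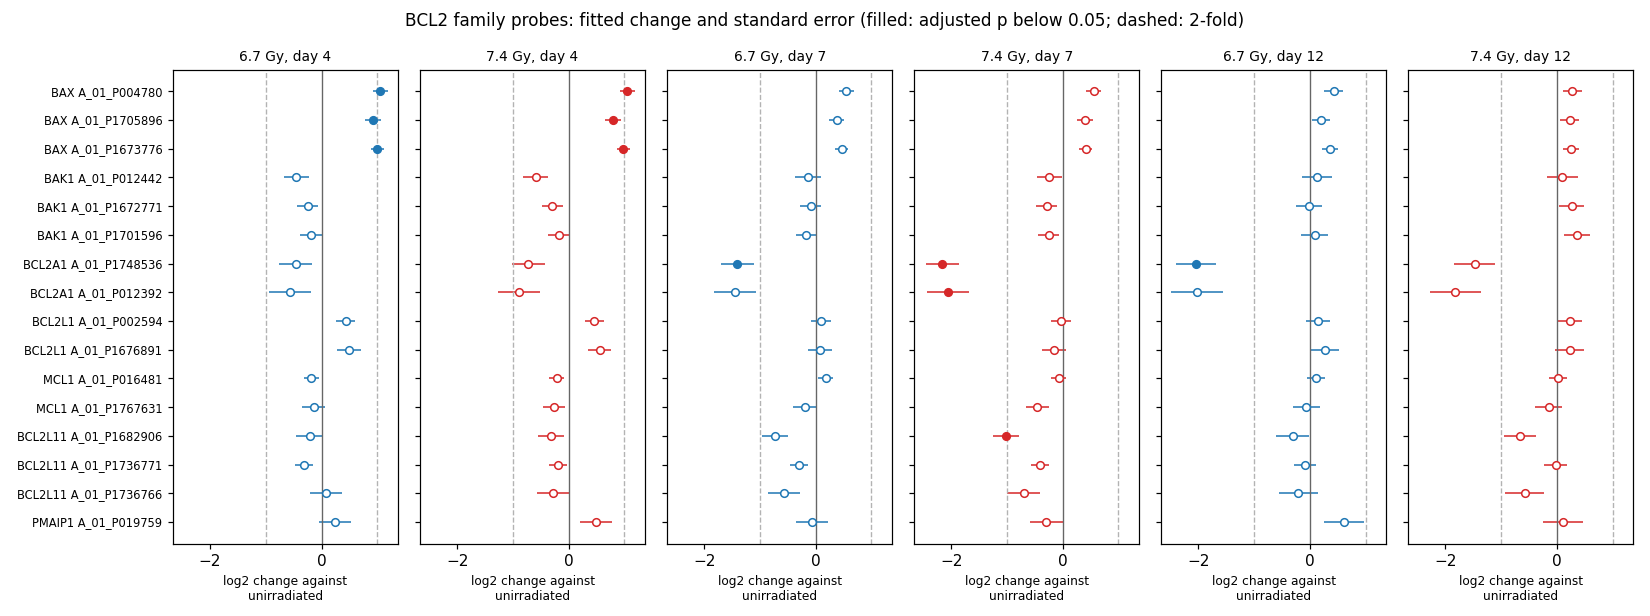
Fitted log2 change (points) with its standard error (bars) of the 16 BCL2 family probes in each irradiated group against the 4 unirradiated animals; filled points have an adjusted p below 0.05 and dashed lines mark a 2-fold change. The 3 BAX probes are filled on day 4 at both doses. On the lower side, both BCL2A1 probes are filled on day 7 after 7.4 Gy, and only A_01_P1748536 on days 7 and 12 after 6.7 Gy. BCL2L11 is filled for 1 of its 3 probes on day 7 after 7.4 Gy.

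BAX is represented by 3 probes, of which A_01_P004780 was the brightest over the 24 arrays. In unirradiated ileum its levels were 1.63, 1.34, 1.51 and 1.12. On day 4 they were 2.80, 2.48, 2.19 and 2.34 after 6.7 Gy, and 2.41, 2.31, 2.51 and 2.59 after 7.4 Gy. Every day-4 animal thus lay above every unirradiated animal, and the 7.4-Gy animals (2.31 to 2.59) lay within the wider range of the 6.7-Gy animals (2.19 to 2.80). The change was 1.05 (SE 0.14, 2.07-fold, adjusted p = 3.07e-04) after 6.7 Gy and 1.06 (SE 0.14, 2.08-fold, adjusted p = 1.72e-04) after 7.4 Gy.

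The other BAX probes behaved alike. For A_01_P1673776 the unirradiated levels ran from 0.17 to 0.58 and the day-4 levels from 1.20 to 1.63, with changes of 1.0 (SE 0.12, adjusted p = 7.83e-05) and 0.98 (SE 0.12, adjusted p = 7.23e-05), both just short of 2-fold. For A_01_P1705896 the unirradiated levels ran from 1.01 to 1.26 and the day-4 levels from 1.73 to 2.35, with changes of 0.92 (adjusted p = 1.43e-03) and 0.80 (adjusted p = 2.88e-03). Groups did not overlap on any of the 3 probes at either dose (background 4.1% and 7.84% of probes in that direction at 6.7 and 7.4 Gy), and all 3 passed the adjusted p (background 1.38% and 3.55% higher). Across the 24 arrays, which share tissue, platform and scaling, the probes of BAX correlated with each other at Pearson's r of 0.863 to 0.933.

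The size of the BAX change sat at the 2-fold limit, and the call of A_01_P004780 moved with the processing more than its adjusted p did. With the slide as a block the changes were 0.91 (adjusted p = 0.00369) and 0.94 (adjusted p = 0.00164), below 2-fold, and with array position as a covariate they were 1.24 (adjusted p = 4.58e-04) and 1.43 (adjusted p = 0.00601). A_01_P1705896 was lost after 6.7 Gy without the 4 arrays with a low share above background (0.70, adjusted p = 0.0562) and after 7.4 Gy with the position covariate (0.87, adjusted p = 0.108). Of 36 alternatives, A_01_P004780 stayed below 0.05 in 35 at 6.7 Gy (all but the methods' t-test after adjustment, adjusted p = 0.155) and in 36 at 7.4 Gy. Here the methods' t-test without adjustment was judged by its unadjusted p, and every other alternative by the adjusted p. On slides that also held a control array, the day-4 animals were higher by 0.56 to 1.01 after 6.7 Gy and by 0.90 to 1.18 after 7.4 Gy, over 2 slides each.

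**Figure D2:**
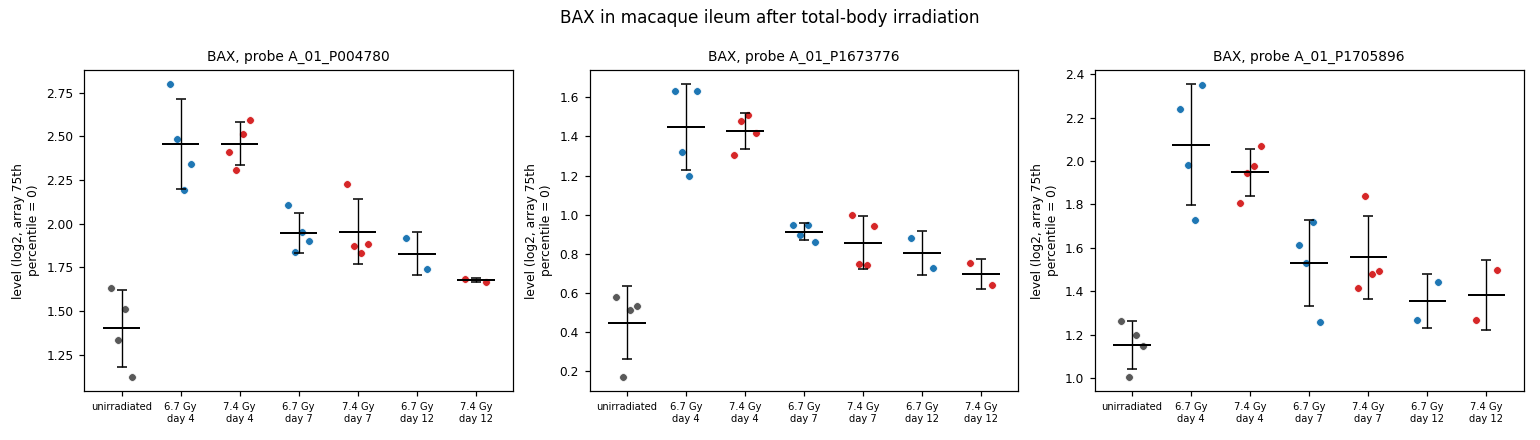
Levels (log2, 75th percentile of the array = 0) of the 3 BAX probes in each animal, grouped by dose and day; bars are means and error bars SD (n = 4, or 2 on day 12). On every probe the 8 day-4 animals lie above the 4 unirradiated ones, and the day 7 and day 12 animals lie between or near them.

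Days 7 and 12 were lower than day 4. On day 7 the levels of A_01_P004780 were 2.11, 1.84, 1.95 and 1.90 after 6.7 Gy and 2.23, 1.88, 1.83 and 1.88 after 7.4 Gy. On day 12 they were 1.92 and 1.74, and 1.68 and 1.67, respectively. All of these animals were still above the highest unirradiated value of 1.63 (background 4.47% and 3.72% of probes on day 7 and 15.3% and 8.43% on day 12, 6.7 Gy first), but the changes of 0.55 (adjusted p = 0.0942) and 0.55 (adjusted p = 0.0567) on day 7 and of 0.43 (adjusted p = 0.448) on day 12 after 6.7 Gy did not pass the test. The day 7 change after 7.4 Gy was past the threshold in 6 of 35 alternatives, 1 of them without adjustment (lowest adjusted p = 0.0326). Placed in order of their means, the day-4 groups came first, apart from the rest by 0.50, which is more than their SD; both day 7 groups and day 12 after 6.7 Gy followed without a gap beyond the SD, then day 12 after 7.4 Gy, and unirradiated ileum was lowest.

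The fall of BAX after day 4 was itself tested within each dose. From day 4 to day 7, 0 of the 16 family probes were called at 6.7 Gy, where 8 had an unadjusted limma p below 0.05 (background 19.1%) and the methods' t-test called 0 with or without adjustment (background 0.354% called), and 1 was called lower at 7.4 Gy (background 0.942%, 0.349% lower). Without the 2-fold limit (background 0.31% lower at 6.7 Gy and 1.48% at 7.4 Gy), A_01_P1673776 fell by 0.53 at 6.7 Gy (adjusted p = 0.0333) and by 0.57 at 7.4 Gy (adjusted p = 0.0116), and A_01_P004780 fell by 0.50 at 7.4 Gy (adjusted p = 0.0444), while its difference at 6.7 Gy was -0.51 (adjusted p = 0.0747). From day 4 to day 12, all 3 BAX probes fell at 6.7 Gy, by 0.62 (adjusted p = 0.0334), 0.64 (adjusted p = 0.0178) and 0.72 (adjusted p = 0.0221), against a background of 2.14% lower. At 7.4 Gy, with a background of 1.71%, the same interval gave -0.78 (adjusted p = 0.0155), -0.73 (adjusted p = 0.00985) and, for A_01_P1705896, -0.57 (adjusted p = 0.0683). Single animals decided several of these falls. At 7.4 Gy A_01_P004780 no longer passed from day 4 to day 7 without any 1 of 17 animals (adjusted p up to 0.126), whereas A_01_P1673776 passed without each. At 6.7 Gy A_01_P1673776 was lost from day 4 to day 7 without any 1 of the day 7 animals or of day-4 replicates 1, 2 and 4 (adjusted p up to 0.0993). Every fall to day 12 was lost without either of its day 12 animals (adjusted p = 0.0635 to 0.208), and that of A_01_P004780 at 6.7 Gy also without day-4 replicate 1 (-0.51, adjusted p = 0.0523). At 6.7 Gy all falls were also lost with the slide as a block (adjusted p = 0.0788 to 0.147) and without the 4 arrays with a low share above background.

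Cell type markers moved on day 4 as well. The 7 tested of 9 epithelial markers summed to 134 to 221 in unirradiated ileum, 84.5 to 136 after 6.7 Gy and 103 to 124 after 7.4 Gy; 2 and 4 of the 7 fell (background 2.9% and 7.61% of 14191 named genes with an adjusted p below 0.05 in either direction), led by VIL1 (-1.32 and -1.27), the actin-bundling protein of the brush border. The 5 tested of 10 macrophage markers summed to 49.6 to 66.0 in unirradiated ileum, 42.0 to 84.4 after 6.7 Gy and 72.8 to 85.7 after 7.4 Gy, where CD14, the endotoxin co-receptor, rose by 1.14 (adjusted p = 0.0107). The epithelial marker CDH1 and the macrophage markers CD68 and CD163 had no probe, and no tested marker of either list fell below background. The part of these cell types in the BAX result was not tested.

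The genes whose pattern over the 24 arrays was most like that of BAX, among 14190 other named genes, were ZMAT3 (r 0.916, Spearman's rho 0.904), PSD2 (r 0.895, rho 0.836) and PLK2 (r 0.883, rho 0.871). ZMAT3 encodes a zinc finger protein that binds RNA, and PLK2 a polo-like kinase. The 24 points share platform and scaling and fall into the 7 groups, so these coefficients describe the arrays only.

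BCL2A1, also known as BFL-1 or A1, is a short-lived protective member induced by NF-kappaB in leukocytes. It is represented by 2 probes, A_01_P1748536, well above background on all 24 arrays, and A_01_P012392, well above background on 23, and they correlated at r of 0.964. The unirradiated levels of A_01_P1748536 were -2.07, -2.05, -2.64 and -1.36. On day 4 they were -3.00, -2.78, -2.57 and -1.61 after 6.7 Gy and -2.75, -2.47, -2.80 and -2.96 after 7.4 Gy. These groups overlapped the unirradiated one, and neither the change of -0.46 (adjusted p = 0.344) nor that of -0.72 (adjusted p = 0.143) passed the test.

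On day 7 the levels of that probe were -3.46, -3.71, -3.54 and -3.03 after 6.7 Gy and -4.61, -3.83, -3.78 and -4.54 after 7.4 Gy. Every day 7 animal was therefore below every unirradiated animal, and every 7.4-Gy animal was below every 6.7-Gy animal (backgrounds 3.51% and 4.24% of probes against unirradiated ileum and 1.85% between the doses). BCL2A1 fell by 1.41 after 6.7 Gy (SE 0.30, 2.65-fold lower, adjusted p = 0.0351) and by 2.16 after 7.4 Gy (SE 0.30, 4.48-fold lower, adjusted p = 0.00115). The difference of -0.76 between the doses had an unadjusted limma p of 0.0187 and an adjusted p of 0.992, so it did not pass.

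On day 12 the levels were -3.97 and -4.18 after 6.7 Gy and -3.92 and -3.09 after 7.4 Gy, all below the unirradiated animals (background 7.56% and 9.37% of probes). The change at 6.7 Gy was -2.05 (SE 0.36, 4.13-fold lower, adjusted p = 0.0290) and was called, and that at 7.4 Gy was -1.48 (SE 0.36, adjusted p = 0.141) and was not. With the groups in order of their means, unirradiated ileum and both day-4 groups came first without gaps beyond their SD, a gap of 0.69 separated them from the later groups, and the 4 later groups did not differ from their neighbours beyond their SD.

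The second BCL2A1 probe gave similar sizes with more spread. Its unirradiated levels ran from -3.44 to -2.02 and those on day 7 after 7.4 Gy from -5.40 to -4.13, a change of -2.06 (SE 0.38, 4.17-fold lower, adjusted p = 0.00716). In that irradiated group the probe was well above background in only 3 of the 4 animals. At 6.7 Gy its changes were -1.44 on day 7 (adjusted p = 0.113) and -2.02 on day 12 (adjusted p = 0.0979), and at 7.4 Gy on day 12 -1.82 (adjusted p = 0.156). On day 4 after 7.4 Gy all 4 animals were below the unirradiated range (background 7.91% of probes without overlap in that direction), with a change of -0.89 (adjusted p = 0.152).

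Within a dose, BCL2A1 fell from day 4 to day 7 after 7.4 Gy by 1.44 (SE 0.30, 2.72-fold lower, adjusted p = 0.0115), and from day 4 to day 12 after 6.7 Gy by 1.58 (SE 0.36, 3.00-fold lower, adjusted p = 0.0202). In the latter comparison 1 of the 16 family probes was called, against a background of 2.59% (0.787% lower). The difference was -0.94 from day 4 to day 7 after 6.7 Gy (adjusted p = 0.112) and -0.76 from day 4 to day 12 after 7.4 Gy (adjusted p = 0.252), where 0 of the 16 probes were called (background 1.8%), 7 had an unadjusted limma p below 0.05 (background 19.8%) and the methods' t-test called 0 with or without adjustment.

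**Figure D3:**
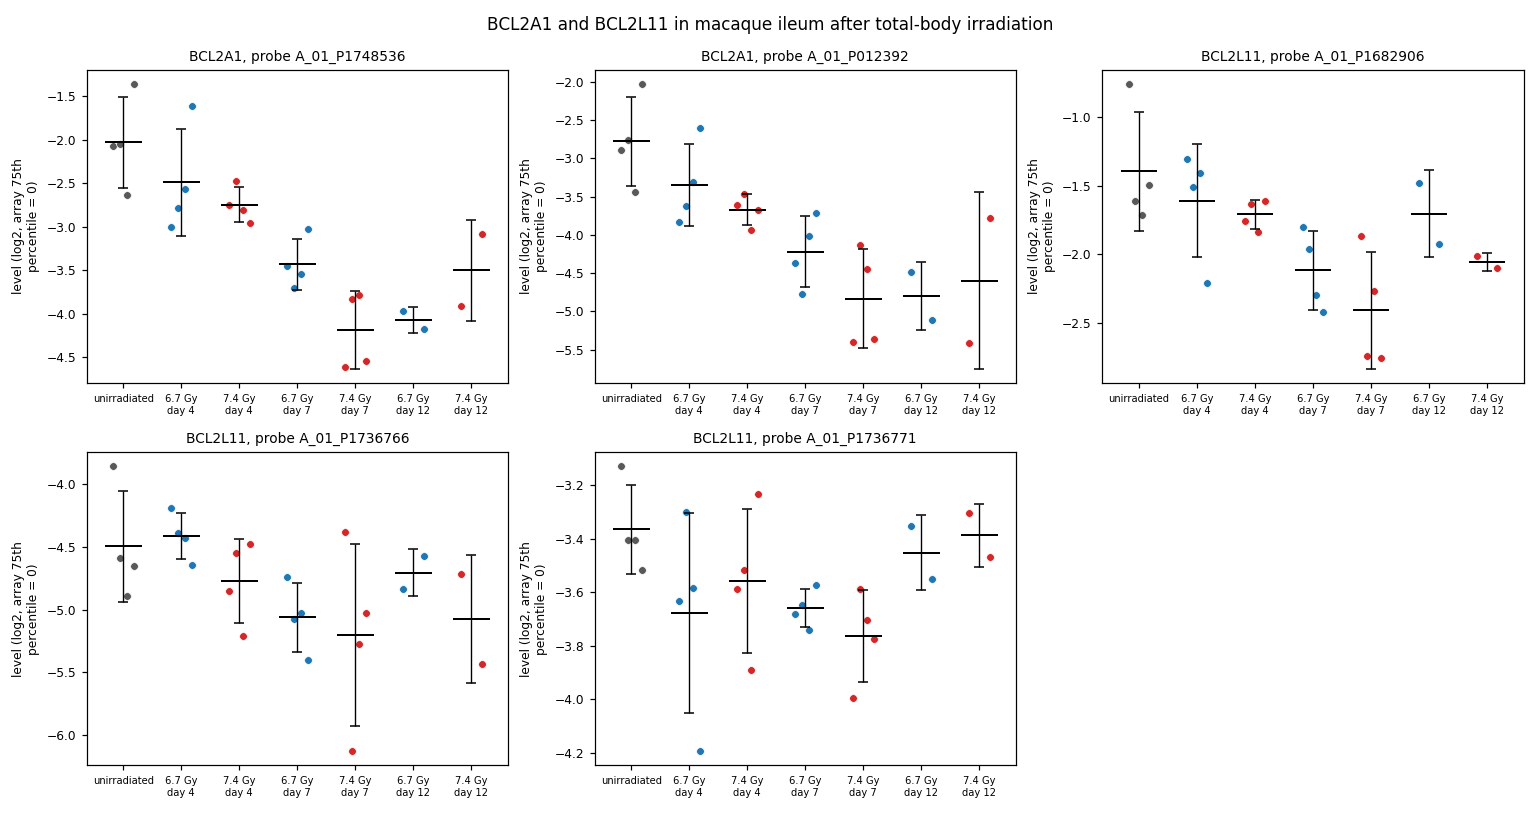
Levels (log2, 75th percentile of the array = 0) of the 2 BCL2A1 and 3 BCL2L11 probes in each animal; bars are means and error bars SD (n = 4, or 2 on day 12). BCL2A1 probe A_01_P1748536 lies between -2.64 and -1.36 in unirradiated ileum and between -4.61 and -3.78 on day 7 after 7.4 Gy, and the BCL2L11 probes overlap between most groups.

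BCL2A1 was dim, with intensities from 34.2 to 466 for A_01_P1748536, and its fold depended on how background was removed. With the normexp correction the change on day 7 was -0.97 after 6.7 Gy (adjusted p = 0.0295) and -1.18 after 7.4 Gy (adjusted p = 0.00476), and on day 12 after 6.7 Gy it was -1.16 (adjusted p = 0.0496). The day 4 to day 12 difference at 6.7 Gy became -0.86 (adjusted p = 0.0457), and the day 4 to day 7 difference at 7.4 Gy was then -0.57 (adjusted p = 0.105) and was lost. The second probe on day 7 after 7.4 Gy was then at -0.96 (adjusted p = 0.0180). Of 35 alternatives, A_01_P1748536 stayed below 0.05 in 34 on day 7 after 7.4 Gy, in 26 on day 7 after 6.7 Gy and in 27 on day 12 after 6.7 Gy. As for BAX, the methods' t-test without adjustment was judged by its unadjusted p in these counts.

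Single animals decided some of the weaker BCL2A1 calls. On day 7 after 6.7 Gy the change was lost without control replicate 1 (-1.42, adjusted p = 0.0922), 2 (-1.41, adjusted p = 0.0697) or 4 (-1.18, adjusted p = 0.132), and without replicate 1, 2 or 3 of the irradiated animals (adjusted p = 0.102 to 0.125). On day 12 after 6.7 Gy it was lost without control replicate 1 (-2.06, adjusted p = 0.0693), 2 (adjusted p = 0.0545) or 4 (-1.82, adjusted p = 0.0755), and without either irradiated animal (adjusted p = 0.193 and 0.173). The day 4 to day 12 fall at 6.7 Gy was lost without either day 12 animal (adjusted p = 0.121 and 0.126) and without the 4 arrays with a low share above background (-1.40, adjusted p = 0.0622). With the slide as a block the day 12 change after 6.7 Gy was -2.09 (adjusted p = 0.0642). On slides that held a control, the differences ran from -1.67 to -0.90 on day 7 after 6.7 Gy (4 slides), from -2.49 to -1.72 on day 7 after 7.4 Gy (2 slides) and from -2.82 to -1.33 on day 12 after 6.7 Gy (2 slides); the slides of day 12 after 7.4 Gy held no control.

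T cell marker sums lay below the unirradiated range in the 3 groups in which BCL2A1 was called, and plasma cell sums lay near or below the low end of theirs. The 8 tested of 12 T cell markers summed to 8.41 to 13.4 in unirradiated ileum, 6.46 to 10.1 and 7.41 to 9.86 on day 4, 5.95 to 7.36 on day 7 after 6.7 Gy, 4.74 to 6.75 on day 7 after 7.4 Gy, and 6.76 to 7.39 and 7.51 to 8.64 on day 12. On day 7 after 7.4 Gy all 8 had lower means (as had 7479 of 14191 named genes) and 4 fell (background 1.16% of named genes with an adjusted p below 0.05). Among them was CD3D, a chain of the T cell receptor complex (-0.92, adjusted p = 0.0380). On day 7 after 6.7 Gy all 8 again had lower means (as had 7055 of 14191 named genes) and 0 passed limma's test after adjustment (background 0.606%). All 8 had an unadjusted limma p below 0.05, a threshold for which the share of all named genes is not given here. Up to 3 of the 8 were not well above background on a day 7 array, and CD6, TRAT1 and UBASH3A had no probe.

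The 4 tested of 12 B cell markers summed to 0.987 to 3.20 in unirradiated ileum, 0.672 to 1.41 and 0.596 to 0.981 on day 4, 0.705 to 1.48 and 0.723 to 1.02 on day 7, and 0.936 to 1.08 and 0.810 to 0.943 on day 12, each pair giving 6.7 Gy first. CD79B, a subunit of the B cell receptor, fell on day 4 by 1.29 (adjusted p = 0.0252) and 1.25 (adjusted p = 0.0163) and on day 7 after 7.4 Gy by 1.34 (adjusted p = 0.0265). On day 7 after 6.7 Gy the B cell sums overlapped the unirradiated range and 0 of the 4 markers passed limma's test. An unadjusted limma p below 0.05 was reached by 2 of them, without a share of all named genes to set beside it. The 3 tested of 6 germinal centre B cell markers were not low as a list, with sums of 1.06 to 1.53 in unirradiated ileum, 1.19 to 2.55 and 1.57 to 2.33 on day 4, 1.26 to 1.60 and 0.886 to 1.61 on day 7, and 1.35 to 1.36 and 1.12 to 1.70 on day 12. Of these, GCSAM, a signalling protein of germinal centre B cells, fell by 1.09 (adjusted p = 0.0174) and 0.92 (adjusted p = 0.0229) on day 4 and by 1.37 on day 7 after 7.4 Gy (adjusted p = 0.00450).

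The 6 tested of 8 plasma cell markers summed to 27.5 to 83.5 in unirradiated ileum, 25.2 to 29.1 and 19.2 to 28.9 on day 4, 23.9 to 29.9 and 13.9 to 28.5 on day 7, and 25.3 to 26.8 and 25.1 to 26.4 on day 12. Of these, TNFRSF17, the receptor BCMA of plasma cells, fell by 2.97 on day 7 after 7.4 Gy (adjusted p = 0.0119). The 5 tested of 9 neutrophil markers summed to 0.699 to 0.897 in unirradiated ileum and to at most 1.45 in all irradiated animals but replicate 4 on day 4 after 6.7 Gy, where they reached 7.53. That animal also had the highest BCL2A1 level of its group (-1.61) and the lowest enterocyte sum of all arrays (152). Among macrophage markers, CSF1R fell on day 7 by 0.97 (adjusted p = 0.00861) and 0.77 (adjusted p = 0.0211), while the list summed to 40.2 to 51.9 after 6.7 Gy and 47.8 to 55.9 after 7.4 Gy. Of the 2 tested of 6 erythroid markers, 1, the beta-globin gene HBB, was called lower in the 3 groups with a BCL2A1 call and on day 4 at both doses. On day 12 after 7.4 Gy 0 were called, and 1 had an unadjusted limma p below 0.05 (8.13% of all tested probes did). The erythroid sums of every irradiated group overlapped the unirradiated range of 114 to 154. The part of these cell types in the BCL2A1 and BCL2L11 results was not tested.

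**Figure D4:**
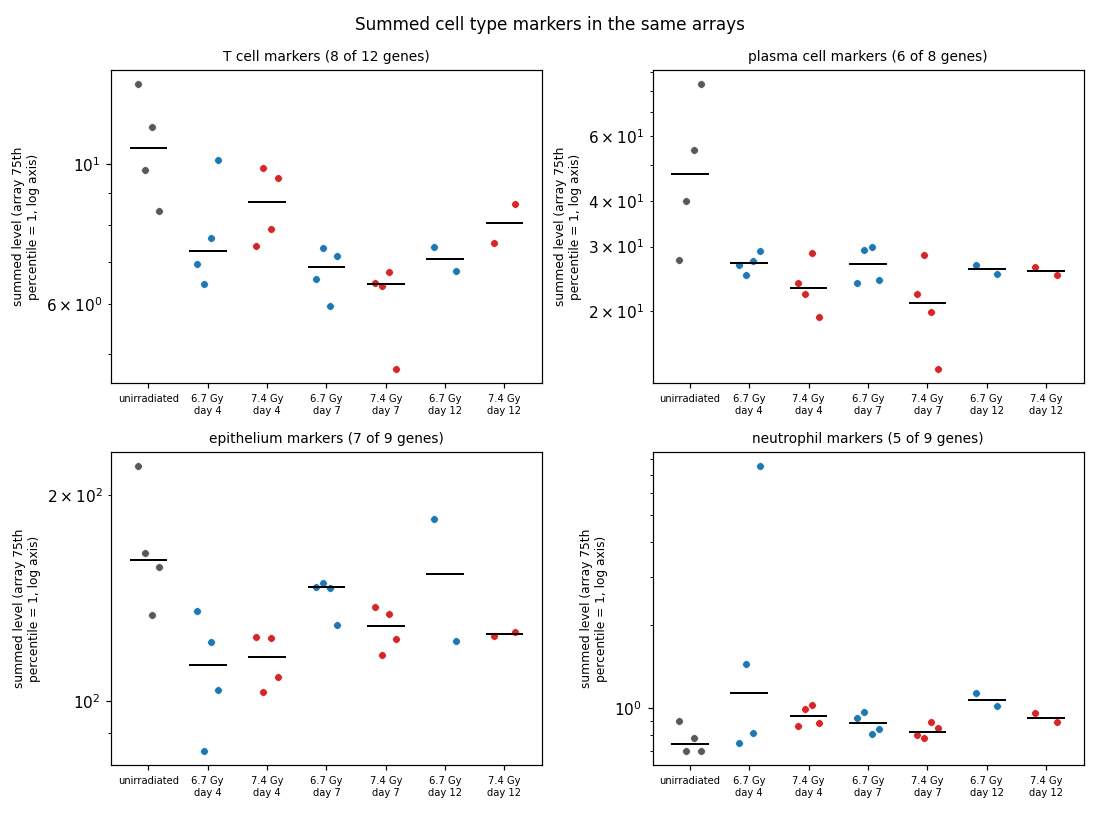
Summed levels (linear, 75th percentile of the array = 1, log axis) of tested T cell, plasma cell, epithelium and neutrophil markers in each animal, with bars at group medians. T cell sums are lowest on day 7 after 7.4 Gy (4.74 to 6.75), epithelial sums are lowest on day 4, and 1 animal on day 4 after 6.7 Gy has a neutrophil sum of 7.53.

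The genes most like BCL2A1 over the 24 arrays were LCP1 (r 0.866, rho 0.869), which encodes the actin-bundling protein L-plastin of leukocytes, LIMD2 (r 0.862, rho 0.863) and ARHGAP25 (r 0.860, rho 0.836), a Rac GTPase-activating protein of blood cells. As for BAX, these coefficients only describe the same 24 arrays.

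BCL2L11 encodes BIM, the BH3-only protein that removes lymphocytes when survival signals are withdrawn. Levels of its brightest probe, A_01_P1682906, were -0.76, -1.61, -1.71 and -1.49 in unirradiated ileum and -1.87, -2.74, -2.27 and -2.76 on day 7 after 7.4 Gy. The groups did not overlap (background 4.24% of probes in that direction), and the change was -1.02 (SE 0.24, 2.02-fold lower, adjusted p = 0.0395). The first control was the only one above -1.49, and without it the change was -0.80 (adjusted p = 0.143). The call was also lost without control replicate 2 (-1.09, adjusted p = 0.0525) or 4 (-1.05, adjusted p = 0.0719), without replicate 2 (-0.91, adjusted p = 0.122), 3 (-1.06, adjusted p = 0.0644) or 4 (-0.90, adjusted p = 0.149) of its own group, and without any 1 of 6 animals of other groups (adjusted p = 0.0504 to 0.0511). The change was -0.79 with the normexp correction (adjusted p = 0.0623) and -1.20 with the slide as a block (adjusted p = 0.0261). Its p stayed below 0.05 in 20 of 35 alternatives, where the methods' t-test without adjustment was judged by its unadjusted p.

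The remaining BCL2L11 values gave no further calls. On day 7 after 6.7 Gy the levels were -1.80, -1.96, -2.30 and -2.42, also all below the unirradiated ones (background 3.51%), with a change of -0.73 (adjusted p = 0.249), or -0.51 without the first control (adjusted p = 0.622). On day 4 they overlapped the unirradiated range, from -2.21 to -1.31 after 6.7 Gy and from -1.84 to -1.61 after 7.4 Gy, and on day 12 they were -1.48 and -1.93, and -2.01 and -2.10. The other BCL2L11 probes had changes of -0.70 (A_01_P1736766, adjusted p = 0.290) and -0.40 (A_01_P1736771, adjusted p = 0.285) on day 7 after 7.4 Gy, or -0.49 (adjusted p = 0.590) and -0.32 (adjusted p = 0.544) without the first control. Correlations between the 3 probes over the 24 arrays were uneven, from 0.238 to 0.800.

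The genes most like BCL2L11 were SNRK (r 0.831, rho 0.803), a serine/threonine kinase, BOD1L (r 0.797, rho 0.848) and SGK1 (r 0.790, rho 0.813), a kinase induced by serum and glucocorticoids. With probes of 1 gene correlating as low as 0.238, these likenesses are those of a single BCL2L11 probe.

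BCL2L1 encodes the protective protein BCL-XL, with BCL-XS as its shorter, pro-apoptotic splice form; the probes were not matched to a splice form here. Levels of A_01_P002594 were 0.60, -0.34, -0.16 and -0.41 in unirradiated ileum. On day 4 they were 0.32, 0.62, 0.16 and 0.31 after 6.7 Gy and 0.24, 0.42, 0.35 and 0.52 after 7.4 Gy. The first control thus lay within the day-4 range and the other 3 controls lay below all 8 day-4 animals. With all controls the changes were 0.43 (SE 0.17, adjusted p = 0.153) and 0.46 (SE 0.17, adjusted p = 0.111), and without the first control they were 0.66 (adjusted p = 0.0254) and 0.69 (adjusted p = 0.0120).

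The second BCL2L1 probe, A_01_P1676891, showed the same dependence. Its changes on day 4 were 0.49 (adjusted p = 0.181) and 0.56 (adjusted p = 0.115) with all controls, and 0.74 (adjusted p = 0.0508) and 0.81 (adjusted p = 0.0228) without the first. Over the 24 arrays the 2 probes correlated at r of 0.822. On day 7 the levels of A_01_P002594 ran from -0.21 to 0.27 after 6.7 Gy and from -0.24 to -0.00 after 7.4 Gy, and its day 4 to day 7 difference at 7.4 Gy was -0.49 (adjusted p = 0.122), or adjusted p = 0.0337 in the fit without the first control, which shares its spread.

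BAK1 encodes the second pore-forming effector. Its brightest probe, A_01_P012442, had a mean level of 3.41 ± 0.55 (SD, n = 4) in unirradiated ileum, 2.96 ± 0.38 and 2.82 ± 0.17 on day 4, 3.27 ± 0.10 and 3.17 ± 0.33 on day 7, and 3.54 ± 0.01 and 3.50 ± 0.20 (n = 2) on day 12, each pair giving 6.7 Gy first. The unirradiated levels were 3.72, 2.60, 3.78 and 3.53, and with control replicate 2 included each irradiated group overlapped them. The largest change against unirradiated ileum was -0.59 on day 4 after 7.4 Gy (SE 0.23, adjusted p = 0.117), opposite in sign to BAX, where the levels were 2.90, 2.70, 3.02 and 2.66. These animals lay below the other 3 controls, and without control replicate 2 the change was -0.86 and passed the test (adjusted p = 0.0165). The smallest adjusted p of the other 2 probes was 0.364 and 0.551, and the 3 probes correlated at 0.611 to 0.880.

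MCL1 encodes a protective protein with a rapid turnover, so that its mRNA and protein need not move together. Levels of A_01_P016481 averaged 3.66 ± 0.24 (SD, n = 4) in unirradiated ileum and the means of the irradiated groups lay between 3.45 and 3.85. No change against unirradiated ileum passed the test, with adjusted p at or above 0.361. From day 4 to day 7 after 6.7 Gy the mean went from 3.48 to 3.85, a difference of 0.37 (SE 0.13, adjusted p = 0.157) that did not pass. The second probe, A_01_P1767631, changed by -0.46 on day 7 after 7.4 Gy (adjusted p = 0.335), or by -0.21 without the first control (adjusted p = 0.698), and correlated with the first at only 0.274.

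PMAIP1 encodes NOXA, the BH3-only partner of MCL1. Its probe, A_01_P019759, was dim, with levels of -2.63, -4.07, -4.18 and -3.68 in unirradiated ileum, -3.45, -3.25, -3.79 and -3.08 on day 4 after 6.7 Gy and -3.42, -3.59, -2.70 and -2.89 after 7.4 Gy. The first control lay above all day-4 animals. The other 3 controls spanned -4.18 to -3.68, which overlapped the animals after 6.7 Gy but not those after 7.4 Gy. The changes on day 4 were 0.25 (SE 0.29, adjusted p = 0.622) and 0.49 (SE 0.29, adjusted p = 0.324) with all controls, and 0.58 (SE 0.25, adjusted p = 0.214) and 0.83 (SE 0.25, adjusted p = 0.0792) without the first. The highest mean was that of day 12 after 6.7 Gy, with levels of -2.75 and -3.31 and a change of 0.61 (SE 0.36, adjusted p = 0.644), or 0.95 without the first control (SE 0.30, adjusted p = 0.321). From day 4 to day 7 at 7.4 Gy the difference was -0.78 (adjusted p = 0.145, or 0.0595 in the fit without the first control).

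No family probe was called between the doses by limma or by the methods' t-test, adjusted or not, with 4 against 4 animals on days 4 and 7 and 2 against 2 on day 12. On these days 0, 1 and 0 of the 16 probes had an unadjusted limma p below 0.05 (background 5.54%, 4.02% and 6.25%), and over all tested probes 0%, 0% and 0.00277% were called. BAX differed between the doses by at most 0.15 on its brightest probe. From day 7 to day 12, 0 family probes were called at either dose (background 0.036% at 6.7 Gy and 0.00554% at 7.4 Gy), with 0 and 2 probes at an unadjusted limma p below 0.05 (background 11.1% and 7.68%) and 0 called by the methods' t-test.

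Genes around the family were counted from 3 lists, each gene by its brightest tested probe, beside 2.9% and 7.61% of all 14191 named genes with an adjusted p below 0.05 on day 4 after 6.7 and 7.4 Gy. Of the further BCL2 family genes, 8 of 13 were tested; on day 4 after 7.4 Gy BCL2L14, also known as BCL-G, fell by 1.16 (SE 0.26, adjusted p = 0.0129), from a mean level of 0.61 to -0.55. Of the inhibitors of apoptosis, 6 of 7 were tested, and in the same group BIRC6, a large ubiquitin ligase, fell by 0.58 (adjusted p = 0.00973). No gene of either list passed limma's test on day 4 after 6.7 Gy, on day 7 or on day 12. On day 4 after 6.7 Gy 2 genes of each list had an unadjusted limma p below 0.05, and on the later days at most 1 of a list. These unadjusted counts have no share of all named genes beside them.

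Of the regulators of family transcription and turnover, 14 of 15 were tested. MYC, a transcription factor known to sensitize cells to apoptosis, rose on day 4 by 1.05 (SE 0.23, adjusted p = 0.0211) after 6.7 Gy and 1.01 (SE 0.23, adjusted p = 0.0146) after 7.4 Gy, from a mean level of -0.97 to 0.08 and 0.04. DDIT3 (CHOP), the transcription factor of the endoplasmic reticulum stress response, rose by 0.78 on day 12 after 6.7 Gy (adjusted p = 0.0454).

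The day-4 results of BCL2L14, BIRC6 and MYC were sensitive to array position, as was that of BAX probe A_01_P1705896 after 7.4 Gy. With position as a covariate BCL2L14 changed by -0.58 (adjusted p = 0.575), BIRC6 by -0.49 (adjusted p = 0.283) and MYC by 0.88 (adjusted p = 0.158) and 0.67 (adjusted p = 0.453). Without the first control, DDIT3 changed by 0.78 (adjusted p = 0.0911), while BCL2L14, BIRC6 and MYC kept an adjusted p below 0.05. BCL2L14 was lost without replicate 1 of the 7.4-Gy animals (-0.96, adjusted p = 0.0576). DDIT3 was lost without any 1 of 19 animals, and without replicate 1 of its own group it was at 0.66 (adjusted p = 0.493). MYC after 6.7 Gy was lost with the slide as a block (adjusted p = 0.0693), without the 4 arrays with a low share above background (0.78, adjusted p = 0.105) and without control replicate 2 (0.88, adjusted p = 0.0599) or day-4 replicate 4 (0.79, adjusted p = 0.0542), and after 7.4 Gy without day-4 replicate 3 (0.88, adjusted p = 0.0505).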

How the data were processed

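Ileum RNA of 24 animals was labelled with Cy3 and hybridized by the authors to Agilent Rhesus Macaque V2 one-color arrays, 1 array per animal. Per the file headers, Feature Extraction gave each spot a background-subtracted intensity. The deposited normalized table holds log2 values made by the authors from raw signals minus the 75th percentile of each array, and each probe in it has a median of 0 over the arrays. This file supplied the gene symbols and an alternative set of values, and the values reported here were taken from the scanner files as log2 intensity minus the 75th percentile over all probes that are not controls. The array design names the build rheMac2; no coordinates or sequences were used. Of the labels of the day 12 animals, only the protocol gives 21 days, and day 12 was used.

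Groups were taken from the labels. One mean per group was fitted in limma 3.58.1 (R 4.3.3) over all 24 arrays, for 15 comparisons: each irradiated group against unirradiated animals, the doses on each day, and the days within each dose. The members and gene lists were chosen with earlier results of these data known. Named were all member probes (the brightest reporting a gene), list genes with an adjusted p below 0.05 against unirradiated ileum, and, for each member gene called, the 3 genes most correlated with it. Marker genes come from fixed cell type lists. The procedure was tested on simulated data. The number of arrays limits the precision. Alternatives were the normexp correction (offset 50, on median signals, since the files hold no mean signal), quantile normalization, 2 filters on dim probes, slide, position and replicate terms, trended robust moderation, the methods' t-test, no fold limit, the authors' table, and leaving out each animal, or the 4 arrays under 78%, the last chosen after seeing the data. The authors' raw signal table was not used here, and results of some listed genes are not reported here.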

Additional observations from a re-analysis of the deposited data

Results flagged for a closer look

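Single animals stood apart from the other 3 of their group by Dixon's criterion in 4 of 80 sets of 4 animals, where chance gives about 5%. BAX probe A_01_P004780 was at 2.23 in replicate 1 on day 7 after 7.4-Gy TBI, while the other 3 lay between 1.83 and 1.88. BAX probe A_01_P1673776 was at 0.17 in control replicate 2, with the next control at 0.51. BCL2L1 probe A_01_P1676891 was at -3.46 in control replicate 1, the animal with low smooth muscle markers, with the next control at -4.45. The same probe was at -3.86 in replicate 1 on day 7 after 7.4-Gy TBI, 1 of the 4 arrays with a low share of probes above background, with the next animal at -4.48.

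Effects that differed between days at the same dose, by the test of the difference itself, came from BAX and BCL2A1. BAX probe A_01_P1673776 differed by -0.53 between days 7 and 4 at 6.7 Gy, by -0.57 at 7.4 Gy, and by -0.64 and -0.73 between days 12 and 4. BAX probe A_01_P004780 differed by -0.50 between days 7 and 4 at 7.4 Gy and by -0.62 and -0.78 between days 12 and 4 at 6.7 and 7.4 Gy, and A_01_P1705896 by -0.72 between days 12 and 4 at 6.7 Gy. BCL2A1 probe A_01_P1748536 differed by -1.44 between days 7 and 4 at 7.4 Gy and by -1.58 between days 12 and 4 at 6.7 Gy.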

How the results depend on the processing

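Single family probes were followed only for changes with an unadjusted limma p below 0.05, and list genes only with an adjusted p below 0.05. Each change was counted once per alternative, and most alternatives left out 1 animal. By this count 2425 kept their direction and side of the threshold, 62 newly passed it, 152 no longer passed and 0 reversed. For changes chosen this way reversals were unlikely from the start. Of the 62, 33 came from the methods' t-test without adjustment. Of the counts of called family probes, 484 stayed within 1.5 times and 63 moved. Counts are given as lower or higher calls together. With normexp the count went from 1 to 0 on day 4 at both doses, on day 7 after 6.7 Gy, from day 4 to day 7 at 7.4 Gy and from day 4 to day 12 at 6.7 Gy, and from 3 to 1 on day 7 after 7.4 Gy. With quantile normalization it went from 1 to 2 on day 4 at both doses and from day 4 to day 12 at 6.7 Gy, and from 1 to 0 on day 7 after 6.7 Gy, as it did with no filter on dim probes. With slide as a block it went from 1 to 0 on day 4 at both doses, on day 12 after 6.7 Gy and from day 4 to day 12 at 6.7 Gy; with position as a covariate it was 2 on day 4 at both doses. The authors' table gave 2 on day 4 after 6.7 Gy. Without the 4 arrays under 78% it was 0 on day 4 after 6.7 Gy and from day 4 to day 12 at 6.7 Gy.

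The methods' t-test after Benjamini-Hochberg adjustment gave 0 at 6.7 Gy against unirradiated ileum on each day, on day 7 after 7.4 Gy, from day 4 to day 12 at 6.7 Gy and from day 4 to day 7 at 7.4 Gy; unadjusted it gave 2 on days 7 and 12 after 6.7 Gy, from day 4 to day 12 at 6.7 Gy and from day 4 to day 7 at 7.4 Gy, and 1 on day 12 after 7.4 Gy. With no fold limit the counts were 3 on day 4 at both doses, 1 and 3 from day 4 to day 7, and 4 and 2 from day 4 to day 12, at 6.7 and 7.4 Gy. The cause of these shifts was not tested.

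Leaving out 1 animal at a time gave 0 to 3 calls on day 4 after 6.7 Gy (0 without its replicate 1, 3 without its replicate 3), 1 to 2 after 7.4 Gy, 0 to 1 on day 7 and on day 12 after 6.7 Gy, 2 to 3 on day 7 after 7.4 Gy, 0 to 2 from day 4 to day 12 at 6.7 Gy and 1 to 1 from day 4 to day 7 at 7.4 Gy; where 1 animal was left in a group, it was assumed to vary like the others. The replicate numbers were not taken to pair the animals. Of pairs with the same number, 16 of 62 had a correlation over 0.1 of their deviations from the group means (median r 0.029). Of pairs with different numbers, 30 of 182 did (median r -0.011). With the replicate block the count on day 12 after 6.7 Gy went from 1 to 0 (BCL2A1, -1.95, adjusted p = 0.0502), and the other counts stayed within 1.5 times. Position could not be fitted for comparisons of days 7 and 12 with unirradiated ileum or of these days with day 4. Of the family probes, only A_01_P012392 of BCL2A1 was not well above background on every array.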
